A study of Mus musculus with 12 samples.

Results

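The genes described here encode the proteasome, the protease complex that degrades proteins tagged with ubiquitin. Its members were all genes of the count tables whose symbol is Psm followed by a letter from a to g and a number, except Psmb8, Psmb9 and Psmb10, the immunoproteasome subunits, which were set beside them as related genes. This rule, which uses the symbols alone, gave 45 of the 24525 genes in the tables. They comprise 8 genes of the alpha rings and 8 of the beta rings of the 20S core particle, 6 ATPases and 11 non-ATPase subunits of the 19S regulatory particle, 5 activators or inhibitors and 7 assembly chaperones.

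The values are RNA-seq counts of 3 wild-type and 3 Ythdf2-/- samples of neural stem/progenitor cells (NSPCs) grown as neurospheres, floating cultures started from the forebrain of mouse embryos at E14.5 and sequenced at passage 1. All cultures were of the C57BL/6 strain and grew in medium with EGF, bFGF, N2 and B27, and no group received a further treatment. The Ythdf2-/- allele came from mice in which LoxP sites flank the start of Ythdf2, crossed to a Cre-deleter line, so the deletion is present in every cell and is not specific to neural tissue. Ythdf2 is a cytoplasmic protein that binds m6A-modified mRNA and promotes its decay. The libraries are the input fraction of an m6A-IP experiment, that is, fragmented mRNA that did not go through the antibody step. The samples are reported as biological replicates, but the labels do not tie them to separate embryos or litters, so p-values measure the spread between these samples.

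In the proteasome, the alpha rings form the gate of the 20S core and the beta rings hold the active sites. The 19S particle recognizes ubiquitinated proteins, removes the ubiquitin and unfolds the substrate with its ring of ATPases. Subunits are made in matched amounts, and their genes are known to be induced together by the transcription factor Nrf1 (Nfe2l1) when proteasome activity falls. Dividing cells, NSPCs among them, rely on the proteasome to remove cyclins and other cell cycle regulators.

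The libraries held 11029827 to 13185778 counted reads, and values are given as CPM (counts scaled to the same library total) after TMM scaling with factors from 0.988 to 1.03. Ythdf2 itself fell from 71.9, 73.3 and 91.4 CPM in wild type 1 to 3 to 11.7, 14.7 and 11.1 CPM in Ythdf2-/- 1 to 3, in keeping with the labels. Wild type 3 stood apart from the other 5 libraries. Its mean Spearman correlation with them over all genes tested was 0.900, against 0.962 to 0.970 for each of the others. Wild type 1 and 2 were the most alike of all pairs, with a chi-square of 3.92 per degree of freedom where 1 would be sampling noise, and the other pairs ran from 18.4 to 114. The neural progenitor markers summed to 5669 CPM in wild type 3 and to between 8067 and 9266 CPM elsewhere, although 6 of these 10 genes were highest in wild type 3. Its 6 astrocyte markers summed to 7334 CPM against 1270 to 2999, its 8 oligodendrocyte lineage markers to 4110 against 1636 to 2019, and its 8 neuron markers to 1963 against 1230 to 1450. Of these lists, 4 of 6, 5 of 8 and 5 of 8 genes were highest in wild type 3, as were 33.8% of all genes tested. The oligodendrocyte lineage list held both Mbp, a myelin protein gene, at 573 CPM in wild type 3 and at most 8.85 CPM elsewhere, and Olig1, a lineage transcription factor gene, at 547 CPM in wild type 3 and 874 to 1250 CPM elsewhere. The 6 microglia and macrophage, 4 endothelial and 5 mesenchymal markers summed to at most 2.21 CPM for each type in any library, and Ptprc, the pan-leukocyte marker, was at 0 in all 6. The counts on genotype are therefore given with and without wild type 3, and the part of these marker differences in the levels of the proteasome genes was not tested. In bulk RNA, fewer cells of a type and less RNA per cell cannot be told apart.

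The summed proteasome mRNA did not follow genotype alone. It was highest in wild type 1 and 2, lowest in wild type 3, and between these levels in all 3 Ythdf2-/- libraries. Together the 45 genes took 0.615% and 0.607% of the counted reads in wild type 1 and 2, 0.450% in wild type 3, and 0.533%, 0.537% and 0.523% in Ythdf2-/- 1 to 3. The Ythdf2-/- shares thus all lay inside the range of the wild-type shares. Of the 45 genes, 44 passed the filter on low counts and were tested. The gene that did not was Psma8, a testis form of an alpha subunit, with 1 read in wild type 2 and 0 in the other 5 libraries, where a count of 0 allows up to 3 reads.

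The level of each library can be set against the mean of wild type 1 and 2, gene by gene. Over the 44 genes the median was 74.2% in wild type 3 and 88.1%, 86.3% and 86.1% in Ythdf2-/- 1 to 3. The corresponding medians over all 13112 genes tested were 101%, 99.9%, 99.9% and 99.2%, so the median proteasome gene was below the median gene in each of these 4 libraries. In wild type 3, 40 of the 44 genes were below the mean of wild type 1 and 2, and the Ythdf2-/- libraries had 41, 39 and 42 genes below it. Over all genes tested the shares below it were 49.4% in wild type 3 and 50.2%, 50.1% and 51.6% in Ythdf2-/- 1 to 3, and all these counts share the same reference libraries. The exceptions above it in wild type 3 were Psmb11, Psme1, Psme4 and Psmf1.

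**Figure D1:**
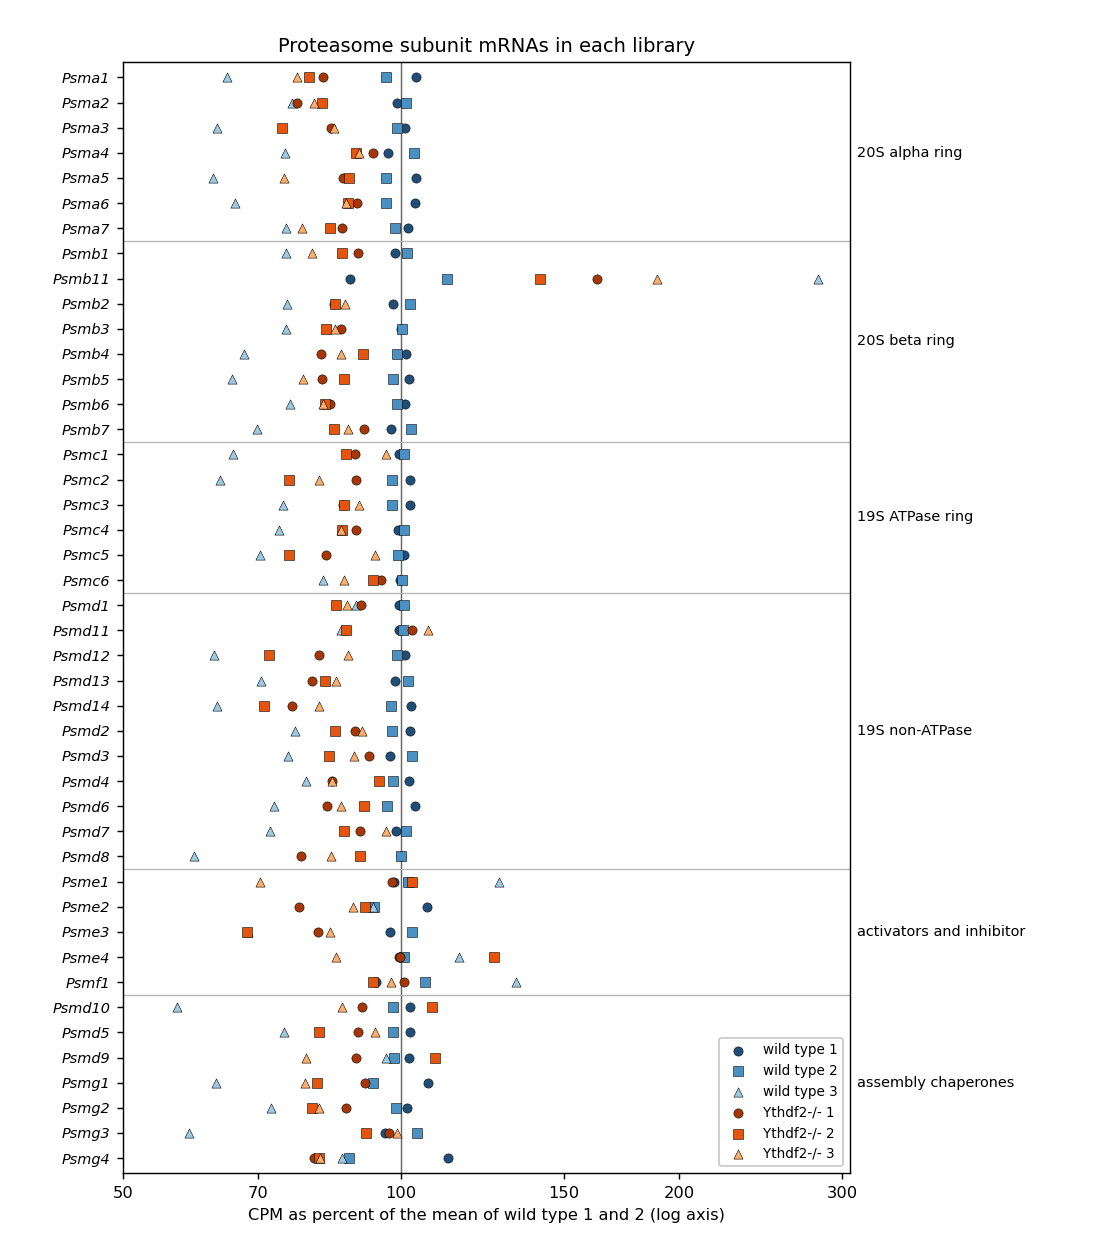
CPM of each of the 44 tested proteasome genes in each of the 6 libraries, as percent of the mean of wild type 1 and 2 (log axis), with genes grouped by class; blue symbols are wild-type and orange symbols Ythdf2-/- libraries. Most genes show wild type 1 and 2 near 100%, the Ythdf2-/- libraries around 86% to 88% and wild type 3 around 74%, while Psmb11, Psme1, Psme4 and Psmf1 are above 100% in wild type 3.

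The order was counted directly. The highest CPM of the 6 libraries was in wild type 1 for 22 of the 44 genes and in wild type 2 for 15, so 37 genes (84.1%) peaked in these libraries, against 27.4% of all genes tested. The lowest CPM was in wild type 3 for 35 genes, and 34.4% of all genes had their lowest value there. Both held for 33 of the 44 proteasome genes (75.0%) and for 17.4% of all genes. The genes of the set share a library and a depth, so these counts describe the libraries and carry no test.

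**Figure D2:**
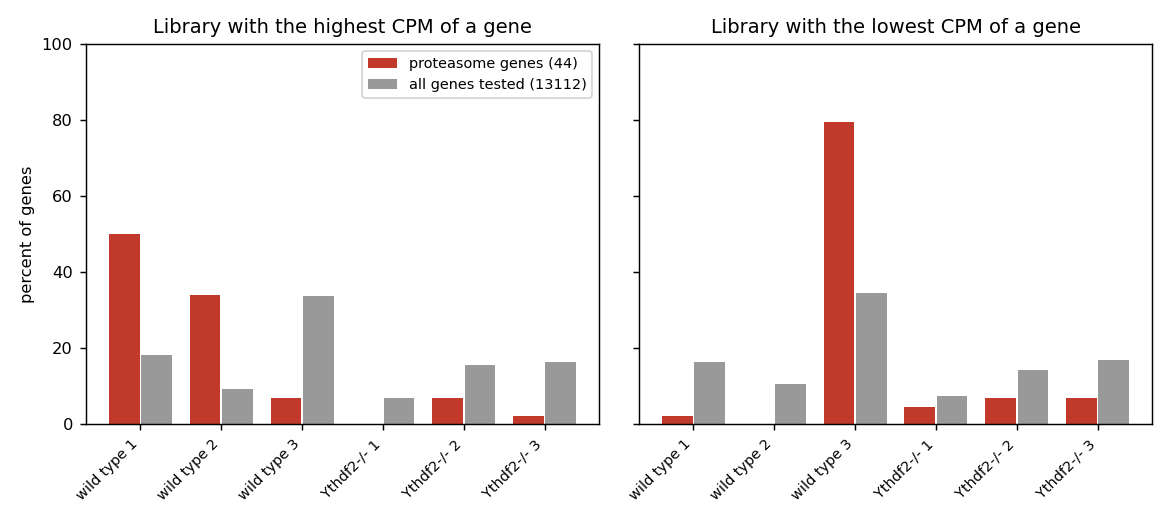
Percent of the 44 proteasome genes (red) and of all 13112 genes tested (grey) that had their highest CPM (left) or lowest CPM (right) in each library. Proteasome genes had their highest value mostly in wild type 1 (22 genes) or 2 (15 genes) and their lowest in wild type 3 (35 genes), while all genes were spread more evenly.

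With all 6 libraries, the comparison of 3 wild-type with 3 Ythdf2-/- samples called none of the 44 genes at an adjusted p below 0.05 by edgeR's quasi-likelihood test, in which 0 of 13112 genes (0%) were called. Even the deleted gene Ythdf2, with a log2 fold change of -2.66 ± 0.18 (SE), was not called, at an adjusted p of 0.0547 by this edgeR test. At an unadjusted p under 0.05 the same test listed 0 of the 44, against 476 of all genes (3.63%), and every proteasome gene had an adjusted p of 0.999. The Wald test of DESeq2 also called 0 of the 44, against 31 of all genes (0.236%), and listed 0 at an unadjusted p under 0.05, against 560 (4.27%). The log2 fold change of Ythdf2-/- over wild type was below 0 for 38 genes and above 0 for 6, where 51.9% of all genes were below 0, with a median of -0.09 beside -0.01 over all genes tested. In 2 of the 44 genes, Psme2 and Psmg4, all Ythdf2-/- libraries were below all wild-type libraries, an arrangement found in 4.92% of all genes, and in 0 genes were all above, against 5.24%. Scaling by library size alone, or omitting the filter on low counts, left 1 of these 2 genes. With 3 samples against 3, an exact permutation test of a single gene cannot go below 0.1.

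Without wild type 3, the median log2 fold change of the 44 genes was -0.21, and that of all genes was 0.01. It was below 0 for 42 of the 44 genes, where 48.3% of all genes were below 0. All 3 Ythdf2-/- libraries lay below both remaining wild-type libraries in 36 genes, against 20.0% of the 13283 genes tested, and above both in 1 gene, Psmb11, against 18.8%. At an unadjusted p under 0.05 by edgeR's quasi-likelihood test, 16 proteasome genes were lower in Ythdf2-/- and 0 were higher, against 8.58% and 8.03% of all genes. None of the 44 was called at an adjusted p below 0.05, where 2 genes (0.0151%) were called among all genes, and the smallest adjusted p of the set was 0.190, for Psmd14. This comparison rests on 2 wild-type libraries that are unusually alike.

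The analysis that weights libraries by their quality, limma-voom, gave wild type 3 a weight of 0.0901 and the other libraries 0.451 to 3.74. It called 2 of the 44 genes, Psma2 and Psmd14, with adjusted p-values of 0.0433 and 0.0498 from limma, where 632 genes (4.82%) were called among all tested. Unadjusted p-values under 0.05 were given to 25 of the 44 genes and to 29.9% of all genes. Limma-voom changed both the test and the weights of all 6 libraries, and the part of each was not tested.

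**Figure D3:**
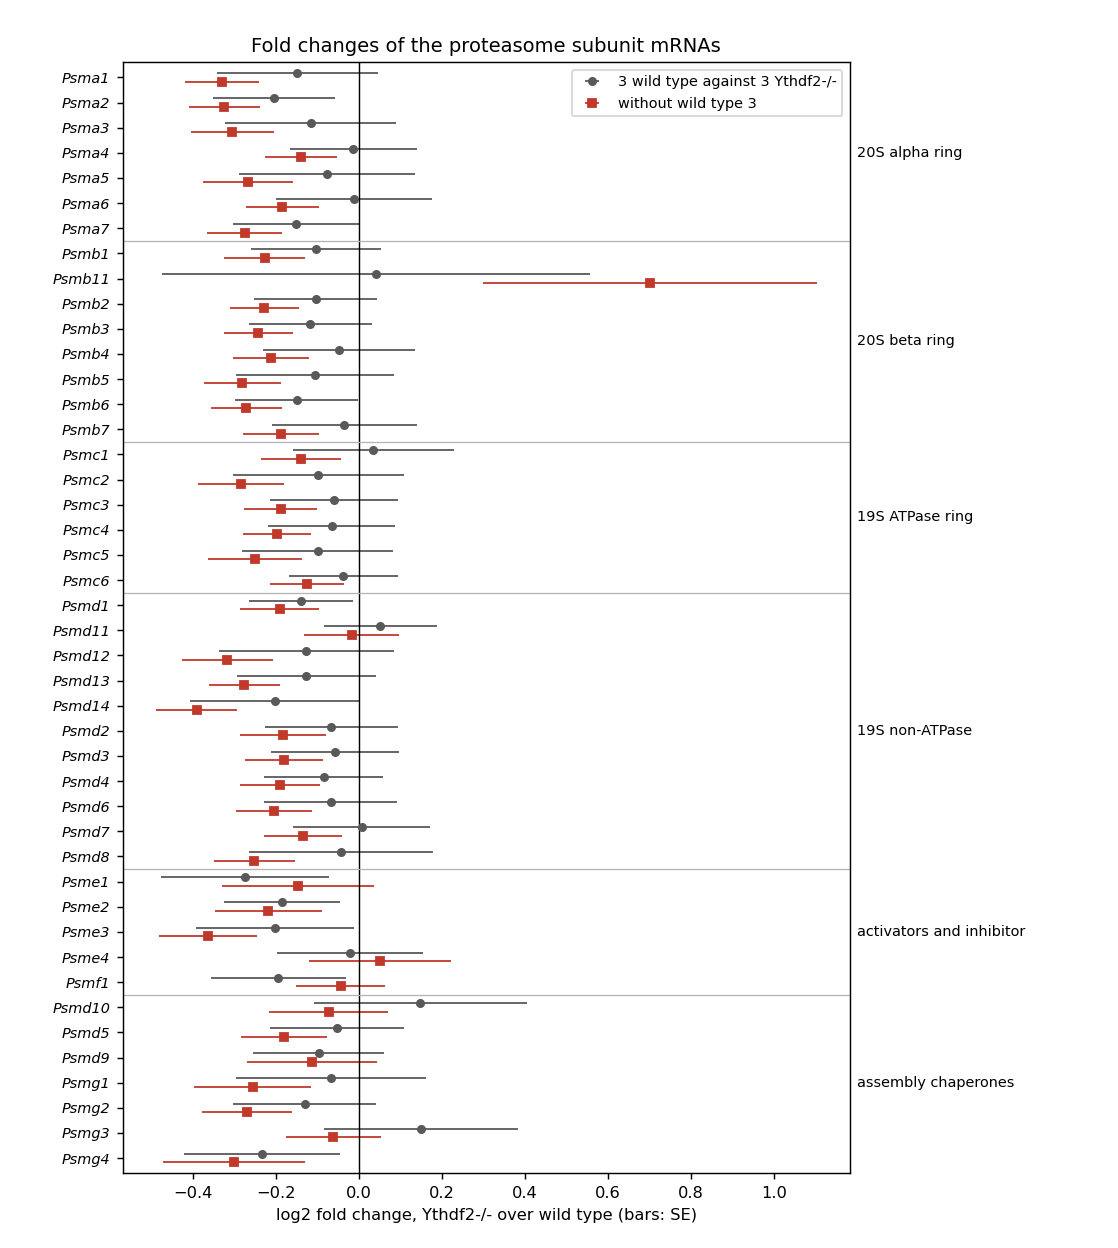
Log2 fold change of Ythdf2-/- over wild type for the 44 tested proteasome genes, by class, with all 6 libraries (grey circles) and without wild type 3 (red squares); bars are standard errors from edgeR. With all libraries most bars reach 0 and the median is -0.09, and without wild type 3 the estimates of 42 genes lie below 0 with a median of -0.21.

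Among the alpha-ring genes, all 7 tested members had a log2 fold change below 0, from -0.20 to -0.01, and a median of -0.12. Psma6, the alpha-ring gene with the highest level per length, measured 201, 187 and 128 CPM in wild type 1 to 3 and 173, 170 and 169 CPM in Ythdf2-/- 1 to 3. The Ythdf2-/- values had a coefficient of variation of 1.44% and lay inside the wild-type range, and the log2 fold change was -0.01 ± 0.19 (SE). Psma2, which had one of the 3 largest changes in size among the 44, stood at 172, 176 and 132 CPM in wild type and at 134, 142 and 140 CPM in Ythdf2-/-. Its log2 fold change was -0.20 ± 0.15 (SE, unadjusted p = 0.210 by edgeR's quasi-likelihood test). Leaving out wild type 3 gave -0.32 ± 0.09. Wild type 3 was the lowest library for all 7 genes, at 62.6% (Psma5) to 76.3% (Psma2) of the mean of wild type 1 and 2. Without it, the 3 Ythdf2-/- libraries were below both wild-type libraries for all 7, beside 20.0% of all genes, and 5 of the 7 were lower at an unadjusted p under 0.05, beside 8.58% of all genes.

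The beta rings hold the catalytic subunits. Psmb5 carries the chymotrypsin-like site, and was at 99.7, 95.7 and 64.1 CPM in wild type 1 to 3 and at 80.2, 84.7 and 76.4 CPM in Ythdf2-/- 1 to 3. Psmb6, the caspase-like subunit, was at 208, 203 and 156 CPM in wild type and at 172, 170 and 169 CPM in Ythdf2-/-. Psmb7, the trypsin-like subunit, was at 220, 232 and 158 CPM in wild type and at 206, 191 and 198 CPM in Ythdf2-/-. All 3 genes had the same arrangement, with the Ythdf2-/- libraries above wild type 3 and below wild type 1 and 2, so the groups overlapped. Their log2 fold changes were -0.10 ± 0.19, -0.15 ± 0.15 and -0.03 ± 0.17 (SE). Without wild type 3 they were -0.28 ± 0.09, -0.27 ± 0.08 and -0.19 ± 0.09, and the unadjusted p from edgeR's quasi-likelihood test was 0.0217, 0.0178 and 0.0860, with adjusted p-values of 0.238, 0.233 and 0.357.

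The non-catalytic Psmb1, Psmb2, Psmb3 and Psmb4 followed the same arrangement, with log2 fold changes of -0.12 to -0.05 with all libraries and -0.24 to -0.21 without wild type 3. Psmb11, which encodes a beta subunit of the thymus, was the exception in the ring. It had only 7, 10 and 21 reads in wild type and 13, 13 and 16 in Ythdf2-/-, and it was highest in wild type 3, at 1.92 CPM against 0.599 to 1.29 CPM in the other libraries. At this depth its fold change of 0.04 ± 0.52 (SE, log2) is not precise enough to give a direction.

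The ATPase ring of the 19S particle unfolds substrates and opens the gate of the core. Its 6 genes had log2 fold changes from -0.10 to 0.04 with all libraries and from -0.28 to -0.12 without wild type 3. Psmc1, the highest of them per length, measured 241, 244 and 160 CPM in wild type and 216, 212 and 234 CPM in Ythdf2-/-. Its Ythdf2-/- mean of 220 ± 11.6 CPM (SD, n = 3) was above the wild-type mean of 215 ± 47.9 CPM, and the log2 fold change of 0.04 ± 0.19 (SE) became -0.14 ± 0.10 without wild type 3. Psmc2 and Psmc5 varied most among the Ythdf2-/- libraries, with Psmc5 between 104 CPM in Ythdf2-/- 2 and 128 CPM in Ythdf2-/- 3. Without wild type 3 the Ythdf2-/- libraries lay below both wild-type libraries for all 6 ATPase genes, beside 20.0% of all genes. Of the 6, Psmc2 had an unadjusted p under 0.05 (0.0331, edgeR's quasi-likelihood test), beside 8.58% of all genes that were lower at this threshold.

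The 11 non-ATPase genes of the 19S particle include the scaffold subunits Psmd1 and Psmd2, the ubiquitin receptor Psmd4 and the deubiquitinase Psmd14. Psmd2 was the member with the most reads, at 440, 420 and 330 CPM in wild type and 383, 364 and 390 CPM in Ythdf2-/-, and its log2 fold change was -0.07 ± 0.16 (SE) with all libraries and -0.18 ± 0.10 without wild type 3. Psmd14, described because its fold change without wild type 3 was the largest decrease among the 44, was at 177, 168 and 109 CPM in wild type and at 132, 123 and 141 CPM in Ythdf2-/-. Its log2 fold change was -0.20 ± 0.21 with all libraries and -0.39 ± 0.10 without wild type 3 (SE, unadjusted p = 0.00677, edgeR's quasi-likelihood test). Psmd1 was the class member that moved least in wild type 3, at 89.3% of wild type 1 and 2, and its lowest library was Ythdf2-/- 2. For Psmd11, the Ythdf2-/- values of 98.8, 83.9 and 103 CPM enclosed those of wild type 1 and 2 (95.8 and 96.8 CPM), and without wild type 3 the log2 fold change was -0.02 ± 0.11. Psmd7 gave 0.01 with all libraries and -0.13 without wild type 3, and its values of 171, 164 and 182 CPM in Ythdf2-/- were below the 186 and 191 CPM of wild type 1 and 2. The other members of the class, Psmd3, Psmd4, Psmd6, Psmd8, Psmd12 and Psmd13, had log2 fold changes of -0.13 to -0.04 with all libraries and of -0.32 to -0.18 without wild type 3.

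Among the 5 activators and inhibitor, none had its lowest value in wild type 3. Psme1 and Psme2 encode the subunits of the interferon-inducible activator PA28, Psme3 a nuclear homologue of it, Psme4 the activator PA200 and Psmf1 the inhibitor PI31. Psme1 was at 30.5, 31.6 and 39.6 CPM in wild type and at 30.4, 31.9 and 21.8 CPM in Ythdf2-/-, so it was highest in wild type 3, and Ythdf2-/- 3 lay well below the other 5 libraries. It had the largest change in size of all 44 genes, with a log2 fold change of -0.27 ± 0.20 (SE, unadjusted p = 0.221, edgeR's quasi-likelihood test), which was -0.15 ± 0.18 without wild type 3 and -0.12 without Ythdf2-/- 3. Psme2 was at 36.5, 31.9 and 31.9 CPM in wild type and at 26.5, 31.2 and 30.3 CPM in Ythdf2-/-. The groups did not overlap, but the gap between wild type 3 and Ythdf2-/- 2 was smaller than the spread within either group, and the log2 fold change was -0.19 ± 0.14 (SE, unadjusted p = 0.230). Left-out libraries gave -0.22 ± 0.13 without wild type 3, -0.12 without wild type 1 and -0.11 without Ythdf2-/- 1. Psme2 has a near-identical copy, Psme2b, and how reads were divided between them is not known, so its counts are uncertain.

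Psme3 was highest in wild type 1 and 2, as the core genes were, with 139, 147 and 97.6 CPM in wild type and 116, 97.3 and 120 CPM in Ythdf2-/-. Its lowest library was Ythdf2-/- 2, about equal to wild type 3, and it had log2 fold changes of -0.20 ± 0.19 with all libraries and -0.36 ± 0.12 without wild type 3. Psme4 varied more among the Ythdf2-/- libraries, at 150, 190 and 128 CPM, than among the wild-type ones, at 150, 151 and 174 CPM. Psmf1 was at 38.3, 43.1 and 54.2 CPM in wild type and at 40.9, 37.9 and 39.7 CPM in Ythdf2-/-. For this gene wild type 3 was at 133% of wild type 1 and 2, and the log2 fold change of -0.19 ± 0.16 (SE) became -0.04 ± 0.11 without it. Wild type 3 was the highest library for Psme1 and Psmf1 and the lowest for all tested alpha-ring genes. Leaving it out therefore moved the fold change toward 0 for Psme1 and Psmf1 and away from 0 for the alpha-ring genes.

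The assembly chaperones were the least abundant class per gene, with mean levels of 12.4 to 51.6 CPM. Psmg4, which helps to assemble the alpha ring, was at 15.8, 12.4 and 12.2 CPM in wild type and at 11.3, 11.5 and 11.5 CPM in Ythdf2-/-. Its groups did not overlap, and the Ythdf2-/- libraries had a coefficient of variation of 0.768%, but it had only 133 to 185 reads per library. The log2 fold change was -0.23 ± 0.19 (SE, unadjusted p = 0.259, edgeR's quasi-likelihood test). It was -0.10 without wild type 1, the highest library, and -0.30 ± 0.17 without wild type 3. Psmg3, its partner and the chaperone with the highest level per length, was at 26.1, 28.2 and 16.0 CPM in wild type and at 26.3, 24.9 and 26.9 CPM in Ythdf2-/-. Its log2 fold change of 0.15 ± 0.23 (SE) became -0.06 ± 0.11 without wild type 3. Psmg1 and Psmg2, the other pair of core chaperones, gave -0.07 and -0.13 with all libraries and -0.26 and -0.27 without wild type 3. Of the chaperones of the 19S base, Psmd10 had its lowest value of all libraries in wild type 3 (13.4 CPM against 20.2 to 25.2 CPM), Psmd5 followed the core pattern, and Psmd9 was about equal in the 3 wild-type libraries (36.4, 35.0 and 34.4 CPM) and spread from 28.2 to 38.9 CPM in Ythdf2-/-.

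Sums over the genes of a class were also compared. The 20S core summed to 2372, 2354 and 1668 CPM in wild type 1 to 3 and to 2030, 1995 and 1963 CPM in Ythdf2-/- 1 to 3. The 19S particle summed to 3174, 3141 and 2325 CPM in wild type and to 2759, 2661 and 2810 CPM in Ythdf2-/-. The Ythdf2-/- mean was 84.5% of the mean of wild type 1 and 2 for the core and 86.9% for the 19S particle, and wild type 3 was at 70.6% and 73.6%. For the 5 activators and inhibitor, wild type 3 was at 99.4% and the Ythdf2-/- mean at 91.1%. As means over 3 samples, the core was at 2131 ± 401 CPM (SD) in wild type and 1996 ± 33.5 CPM in Ythdf2-/-, a difference far smaller than the wild-type spread.

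**Figure D4:**
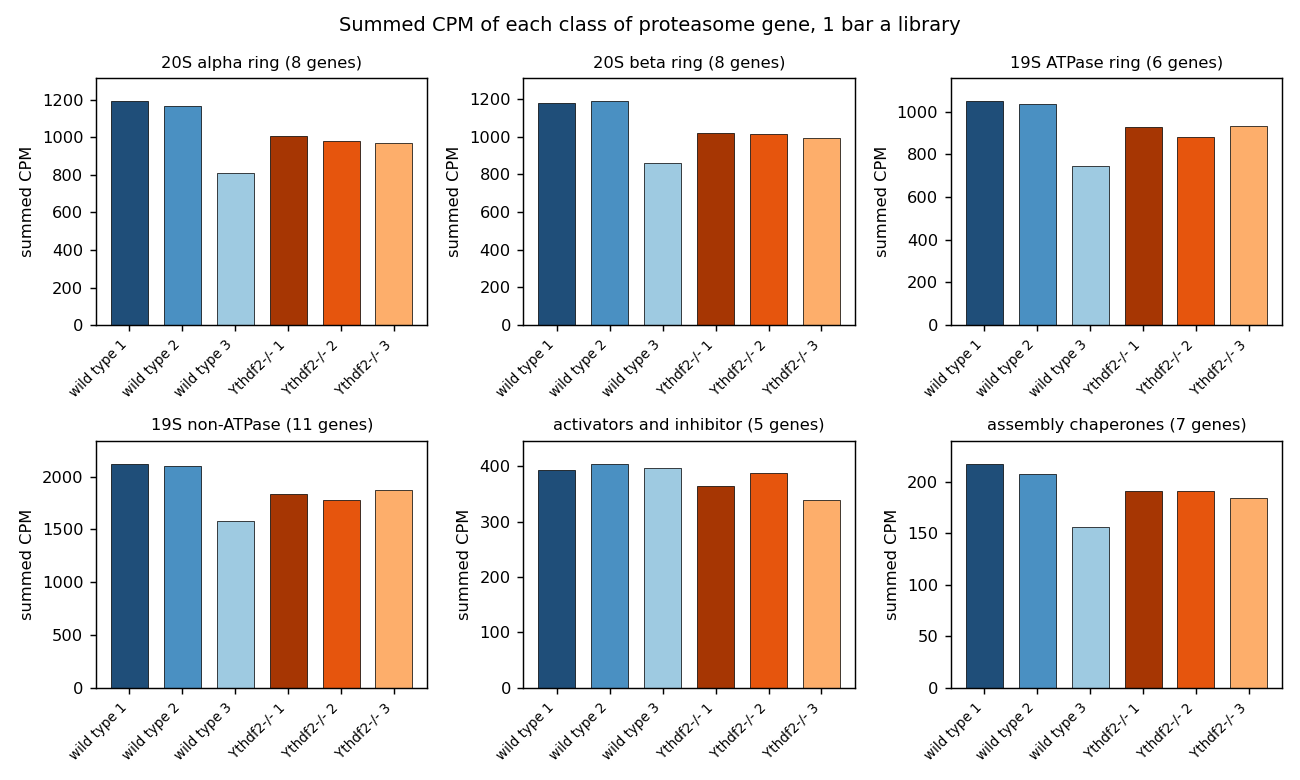
Summed CPM of the genes of each class of proteasome gene, 1 bar for each library (blue, wild type; orange, Ythdf2-/-), with each axis starting at 0. In the core, 19S and chaperone classes wild type 3 is lowest and wild type 1 and 2 highest, and in the activators and inhibitor wild type 3 is at 99.4% of wild type 1 and 2.

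The proportions between the parts of the complex were compared next. Counts divided by gene length (RPKM, here CPM per kilobase of transcript) allow genes to be compared. The summed RPKM of the 19S particle over that of the 20S core was 0.785, 0.781 and 0.797 in wild type 1 to 3 and 0.791, 0.778 and 0.837 in Ythdf2-/- 1 to 3. The alpha ring over the beta ring was 0.808, 0.781 and 0.765 in wild type and 0.790, 0.782 and 0.777 in Ythdf2-/-. In wild type 3, where the core stood at 70.6% of wild type 1 and 2, the 19S to 20S ratio thus lay between those of wild type 1 and Ythdf2-/- 3, and the ratio of the rings was the lowest of the 6 by a small margin. The ratio of PA28 (Psme1 and Psme2) to the core was different, at 0.0327 and 0.0310 in wild type 1 and 2, 0.0485 in wild type 3 and 0.0321, 0.0362 and 0.0309 in Ythdf2-/-.

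Per length, the levels of the core and of the 19S particle overlapped. The highest members were core genes, with Psmb7 at a mean of 207 RPKM over the 6 libraries, Psmb1 at 194, Psma6 at 177 and Psmb6 at 174. Neighbours in this order did not differ beyond their spread: wild-type Psmb7 was at 210 ± 41.1 RPKM and wild-type Psmb1 at 201 ± 31.6 RPKM (SD, n = 3). Psmb5 was at a mean of 95.8 RPKM, the lowest of the 3 constitutive catalytic subunits. The ATPases ranged from 81.9 to 146 RPKM and the non-ATPase subunits from 53.6 (Psmd11) to 131 RPKM (Psmd2). The activators and inhibitor, at 12.7 to 45.6 RPKM, and the chaperones, at 13.2 to 29.5 RPKM, lay below every 19S subunit. At the bottom of the tested genes was Psmb11, at 0.261 RPKM. The lengths average over isoforms, and the 2369 bases listed for Psma3 place it lowest of the tested alpha-ring genes, at 77.2 RPKM, although it had more reads than Psma6 in 5 of the 6 libraries.

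**Figure D5:**
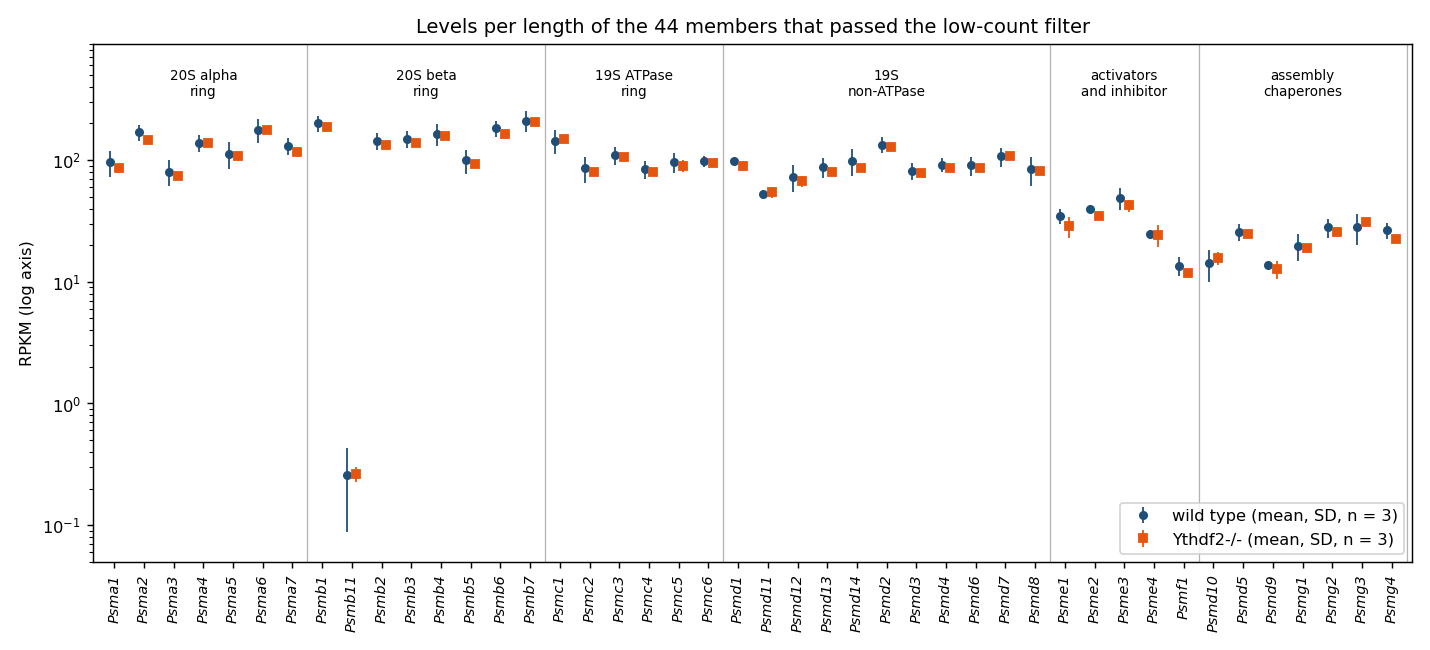
RPKM (log axis) of the 44 tested proteasome genes by class, as mean and SD of 3 wild-type (blue) and 3 Ythdf2-/- (orange) libraries. Core genes other than Psmb11 and 19S genes lie between 53.6 and 207 RPKM on average, activators and chaperones between 12.7 and 45.6 RPKM, and Psmb11 at 0.261 RPKM.

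The Ythdf2-/- libraries agreed closely with each other on these genes. The median coefficient of variation over the 3 Ythdf2-/- libraries was 5.20% for the proteasome genes and 13.9% for all genes tested. By class it was lowest in the alpha ring, at 3.21%, and highest in the activators and inhibitor, at 10.9%. The proteasome genes were also counted more deeply, with a median of 120 CPM against 32.5 CPM for all genes, which by itself lowers counting error.

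The related genes of the pathway were read from a list of 38, of which 37 were found and tested. By edgeR's quasi-likelihood test 0 of the 37 had an adjusted p below 0.05 with all libraries, beside 0% of all genes, and 1, Ubqln2, had an unadjusted p under 0.05, beside 3.63%. Their median log2 fold change was -0.07 with all libraries and -0.13 without wild type 3. In 4 genes all Ythdf2-/- libraries were below all wild-type libraries, and in 1 they were above, beside 4.92% and 5.24% of all genes. Without wild type 3 these counts were 19 and 3, beside 20.0% and 18.8% of all genes. At an unadjusted p under 0.05 without wild type 3, 7 of the 37 were lower and 1 was higher, beside 8.58% and 8.03% of all genes. The lowest value was in wild type 3 for 15 of the 37, beside 34.4% of all genes.

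Of the regulators, Nfe2l1 was at 277, 290 and 264 CPM in wild type and at 249, 233 and 303 CPM in Ythdf2-/-, and its groups overlapped. Nfe2l2, which encodes the related factor Nrf2, was at 167, 154 and 96.5 CPM in wild type and at 167, 136 and 156 CPM in Ythdf2-/-. Wild type 3 was thus low for Nfe2l2 and within the range of the Ythdf2-/- libraries for Nfe2l1. Pomp, the maturation factor of the 20S core, had the core pattern, with 137, 137 and 92.4 CPM in wild type and 101, 102 and 105 CPM in Ythdf2-/-. Its log2 fold change was -0.25 ± 0.18 (SE) with all libraries and -0.41 ± 0.08 without wild type 3, with an unadjusted p of 0.00214 and an adjusted p of 0.153 by edgeR's quasi-likelihood test.

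Immunoproteasome subunits were scarce. Psmb10 had 80 to 280 reads per library and was at 19.8, 18.4 and 7.32 CPM in wild type and at 16.0, 13.9 and 22.5 CPM in Ythdf2-/-. Psmb8 had 6 to 31 reads per library and Psmb9 4 to 28, so neither supports a direction. The summed RPKM of Psmb5, Psmb6 and Psmb7 exceeded that of the immunoproteasome subunits by ratios of 29.9, 31.2 and 56.7 in wild type and of 32.2, 31.0 and 23.0 in Ythdf2-/-.

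Ubqln2, a shuttle that carries ubiquitinated proteins to the proteasome, was at 144, 154 and 168 CPM in wild type and at 187, 186 and 206 CPM in Ythdf2-/-. All Ythdf2-/- libraries were above all wild-type ones, and the log2 fold change was 0.31 ± 0.12 (SE, unadjusted p = 0.0423, adjusted p = 0.999, edgeR's quasi-likelihood test). It was 0.37 ± 0.10 without wild type 3, with an adjusted p of 0.197 by the same edgeR test. The 4 genes whose Ythdf2-/- values were all lower were Faf1 and Ubxn4, cofactors of the unfoldase p97, Uba6, a ubiquitin-activating enzyme, and AI314180, the symbol in these tables for the proteasome adaptor Ecpas. Faf1 went from 95.6, 82.5 and 72.3 CPM in wild type to 71.3, 69.5 and 68.1 CPM in Ythdf2-/-, with a log2 fold change of -0.26 ± 0.14 (SE) that was -0.35 ± 0.10 without wild type 3 and -0.15 without wild type 1. Ubxn4, Uba6 and AI314180 had log2 fold changes of -0.24 ± 0.15, -0.16 ± 0.12 and -0.12 ± 0.11, in the order given. They were -0.11 ± 0.09, -0.16 ± 0.11 and -0.11 ± 0.08 without wild type 3, and Ubxn4 was highest of all in wild type 3.

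The members are scattered over 16 chromosomes. Psmb5 spans chr14:54614120-54617995 on the minus strand with 3 exons, Psmb6 spans chr11:70525324-70527858 on the plus strand with 6, and Psmb7 spans chr2:38588046-38643952 on the minus strand with 8 (RefSeq, GRCm38.p6, equivalent to mm10). Psme1 (chr14:55578494-55581527, plus strand, 11 exons) and Psme2 (chr14:55587440-55591101, minus strand, 11 exons) are close neighbours, and Psmg4 spans chr13:34162964-34178172 on the plus strand with 3 exons. Curated exons of 4 members share bases with another gene. Psmb5 shares 109 bases with Mir686 on its own strand, and on the opposite strand Psma4 shares 45 bases with AY074887, Psmd10 54 with Atg4a and Psme1 4 with Emc9. The strand setting of the counting is not given in the sources used here, so counts of these genes could include or lose a few reads of the overlap.

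Since proteasome genes are known to be controlled through antioxidant response elements, their promoter windows were searched for the core of that element, TGACNNNGC, and for CCAAT, on both strands. RefSeq windows of 300 bases, from 250 before to 50 after a start site, were found for 37 of the 45 members and 27025 genes in all. The element core was present in 6 members (16.2%) and in 14.0% of all genes, and CCAAT in 13 members (35.1%) and 41.1% of all genes. No member held both, so the matches did not overlap. The 6 matches are printed below with their surroundings, 30 bases each on the strand of the match in GRCm38.p6, to show how the core is placed, with the match in capitals.
Psmb5, chr14:54618023-54618052, minus strand: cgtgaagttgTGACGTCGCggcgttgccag
Psmb6, chr11:70525338-70525367, plus strand: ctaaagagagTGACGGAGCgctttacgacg
Psmc6, chr14:45329587-45329616, minus strand: tgagcaatgccTGACTTAGCtactggctgg
Psmd12, chr11:107479278-107479307, minus strand: gtctgaggggggcaaatgTGACACAGCaga
Psmd9, chr5:123228149-123228178, plus strand: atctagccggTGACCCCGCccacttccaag
Psme4, chr11:30771758-30771787, minus strand: ggctcttctggTGACGCTGCagccgcagcg
In Psmb5, Psmb6 and Psmd9 the match was on the strand of the gene and began 47, 9 and 31 bases before the start site of the window. For Psmb6 this start site lies inside the annotated span of the gene given above, so the match does too. In Psmc6, Psmd12 and Psme4 it was on the opposite strand. These 6 genes had log2 fold changes without wild type 3 of -0.32 (Psmd12) to 0.05 (Psme4), and the 44 tested genes ranged from -0.39 to 0.70. A match of these letters is a description of the window, not evidence of binding.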

How the data were processed

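The values come from the input RNA-seq libraries of 3 wild-type and 3 Ythdf2-/- NSPC samples, grouped by the genotype and number in their labels. The libraries were strand-specific. The authors used TopHat with the mm10 genome, and the deposited raw counts are reads per gene with no normalization. The submitters' processing notes list featureCounts, RSEM 1.2.15 and Bowtie2 2.2.9, and the strand setting of the counting is not given in the sources used here. The deposited gene tables hold gene lengths, expected counts, TPM and FPKM by the authors. Expected counts summed to 1.97% to 2.40% of the raw counts, a median of 1 to 2 for a member, so TPM served only as an alternative and FPKM was not used.

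Counts were tested with edgeR 4.0.16 in R 4.3.3 (filterByExpr with a minimum count of 10, TMM, robust glmQLFit, glmQLFTest), on genotype alone, and p-values were adjusted by Benjamini-Hochberg over all 13112 genes tested. CPM divided by the deposited gene length gave RPKM. The scripts were tested only on simulated counts with changes far larger than those of the members and with no library that stood apart. Alternatives used DESeq2 1.42.0, limma 3.58.1, other scalings and filters, a replicate block and leaving out each library. Full values were given for members whose groups did not overlap, the member with the highest RPKM of each class, Psmb5, Psmb6 and Psmb7, and the 3 members with the largest change. Psmd14 and some further genes were named after their values were seen. The members and lists were chosen with earlier results of these data known. Of the pathway list, Paaf1 was not found under that symbol. The 6 m6A-IP samples were not analysed here. Promoter windows and locations came from RefSeq for GRCm38.p6.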

Additional observations from a re-analysis of the deposited data

How the results depend on the processing

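With all 6 libraries 0 genes were called, and 1 was called with DESeq2 size factors, upper quartile scaling, no low-count filter or at least 10 counts in every library, 31 with the DESeq2 Wald test and 632 with limma-voom quality weights. Leaving out a library gave 0 to 2. The count of members called was 0 in every alternative except limma-voom, which called 2, as it did for the pathway genes (2, Pomp and Ubqln2). Members at an unadjusted p under 0.05 numbered 0 except for 25 with limma-voom and 0 to 16 when a library was left out, and 16 came without wild type 3. Members with all Ythdf2-/- libraries lower numbered 1 with library size alone or without the filter and 2 to 36 when a library was left out (36 without wild type 3, 4 without Ythdf2-/- 2). Those with all higher numbered 0 to 1. Over all genes the share lower was 4.92% with all libraries and 20.0% without wild type 3, and the share higher was 5.24% and 18.8%. Shares for the other left-out libraries are not given here. The median log2 fold change of the members stayed below 0 in all 14 alternatives, from -0.21 to -0.01, and was near 0 without wild type 1 (-0.01) or wild type 2 (-0.02).

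Same-numbered deviations from the group means correlated at -0.25, -0.24 and -0.39, and no sample correlated best with its own number. Deviations from a group mean depend on each other, and wild type 3 stood far apart. These correlations therefore cannot show whether same-numbered samples were paired. A replicate block called 0 genes, listed 183 instead of 476 at an unadjusted p under 0.05, and gave Psma6 a log2 fold change of 0.015 in place of -0.01. Library size alone gave Psma6 0.0022, and limma-voom gave Psmc1 -0.14, Psmg3 -0.048 and Psmb10 -0.14. Among the genes given in full, leaving out a library moved the log2 fold change across 0 for Psma6 (-0.18 to 0.12), Psmb7 (-0.19 to 0.070), Psmd2 (-0.18 to 0.016), Psmb5 (-0.28 to 0.010), Psmc1 (-0.14 to 0.14), Psmg3 (-0.062 to 0.31), Nfe2l1 (-0.20 to 0.0056), Nfe2l2 (-0.068 to 0.29), Psmb8 (-0.72 to 0.025) and Psmb10 (-0.13 to 0.44). Without wild type 3 it also did so for the members Psmd7 (-0.13), Psmd10 (-0.073) and Psmd11 (-0.017), and from below to above 0 for Psme4 (-0.021 to 0.051). The log2 ratio of the summed 19S particle, -0.070 with all libraries, was 0.0061 without wild type 1 and -0.20 without wild type 3. The summed 19S to 20S ratio was 0.795 from counts and 0.989 from the deposited TPM, which rest on few reads. Transcript length and effective length were identical in the deposited tables, so that alternative gave no other value.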
